A study of Mus musculus with 66 samples.

Results

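Genes of chemokines, interleukins, tumour necrosis factor (TNF) superfamily ligands and their receptors were followed in whole mouse testis from birth to adulthood. A gene was counted as a member when the annotation of the arrays gave it a symbol that starts with Ccl, Ccr, Cxcl, Cxcr, Tnfsf, Tnfrsf or Il followed by a digit. Probe sets that name 1 such gene covered 123 members. Of these, 52 had a probe set that reached a signal of 50 on 2 or more arrays of its type, and they are part of the 13472 genes tested in all. The brightest such probe set stood for each gene.

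Testes were taken at days 0, 3, 6, 8, 10, 14, 18, 20, 30, 35 and 56 after birth from BL/6-129 mice, a mixed strain background that all samples share, with no treatment named. Each of the 11 ages has 2 numbered samples of total RNA of the whole testis on each of 3 array types (A, B and C), which makes 66 arrays. The labels do not say whether samples came from separate animals or pools, so the p-values measure only the spread between these samples, which may be technical. For comparisons the days were joined into stages, namely day 0 (2 samples), days 3 to 10 (8 samples), days 14 to 20 (6 samples) and days 30 to 56 (6 samples). In mice generally, spermatocytes build up over the weeks after birth and spermatids follow them. Signals are array intensities that the authors scaled to a mean of 125 per array.

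Chemokines are small secreted proteins that attract cells through receptors coupled to G proteins. Interleukins mostly act through receptors assembled from a ligand-specific chain and a shared signalling chain that recruits Janus kinases and STAT factors, and TNF superfamily receptors act through TRAF adaptors and NF-kB. In the testis, resident macrophages, Sertoli cells, Leydig cells and germ cells are all known to make or receive such signals, and the organ is known for its restrained immune reactions.

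The tissue label was checked against marker genes. The summed signal of 10 germ cell markers lay between 879 and 995 at day 0, between 900 and 2370 at days 3 to 10, between 3970 and 11400 at days 14 to 20 and between 26800 and 41700 at days 30 to 56. The 11 Sertoli markers summed to at least 3140 in every sample. The samples of a day correlated at 0.834 to 0.98 on the log2 scale, with the lowest values of types A and B at days 0 and 20 (0.931 and 0.936 on A, 0.863 and 0.869 on B) and of type C at days 0 and 3 (0.834 and 0.836). On every type the 3' to 5' signal ratio of the Gapdh controls at days 0 to 20 had different medians in the numbered samples, 0.7 and 0.845 for samples 1 and 2 on type A, 0.848 and 0.677 on type B and 0.89 and 0.6915 on type C.

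Most of the set had little signal in the testis. The 71 members that were not kept had a highest signal between 2.5 and 83.4 on any array. They include well-known inflammatory genes. The interleukin 1 gene Il1b reached 7.1 at most, Il6 11.2, the monocyte attractant Ccl2 12.2, the T cell attractant Ccl5 8.4, Cxcl10, an interferon-induced chemokine, 13.2 and Tnfsf11, the RANK ligand, 16.2. Ccl3 reached 53 on 1 array. Chemokine receptors were almost all in this group. Cxcr4, the receptor of Cxcl12, reached 38.9, Ccr4, the receptor of Ccl17 and Ccl22, reached 28.7, and the monocyte receptor Ccr2 reached 21. Ccl4, Ccl25, Cxcl1, Il1a, Il1rn, Il10, Il15, Il18 and Tnfsf10 were not kept either. Il11ra1, Il2rg and Tnfsf12 were not analysed here. Signals of this size say that the gene was not measured above the limit used, and not that it is absent. At the limit itself, 7 of the 52 kept members had the required signal on exactly 2 arrays and 8 had it on all 22.

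The 52 kept members comprise 9 chemokines, 1 chemokine receptor, 6 interleukins and the interleukin 18 binding protein gene Il18bp, 20 interleukin receptor genes, 2 TNF superfamily ligands and 13 TNF superfamily receptors. Over the 11 days, limma's moderated F-test called 16 of the 52 (30.8%) at an adjusted p under 0.05, against 57.5% of all genes tested. In comparisons of stages a member was called when its adjusted p was under 0.05 and its change on the log2(signal + 16) scale was 2-fold or more. By family, the F-test called 2 of 9 chemokines, 1 of 1 chemokine receptor, 1 of the 7 interleukin and Il18bp genes, 8 of 20 interleukin receptors, 0 of 2 TNF ligands and 4 of 13 TNF receptors. Among these calls, Ccl17, Ccr6, Il4ra and Tnfrsf11b reached 50 on 2 to 4 arrays and entered the test mainly through the days at which they are high, so their calls are a description and lend these counts no support. The 8 called members with the widest range between day means on the log2(signal + 16) scale were Cxcl12 (4.38), Ccl17 (4.1), Il17rd (3.63), Tnfrsf12a (3.62), Il6st (2.78), Il33 (2.35), Il10rb (2.14) and Tnfrsf1a (1.95). In all 8 the highest day mean lay between day 0 and day 10.

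**Figure D1:**
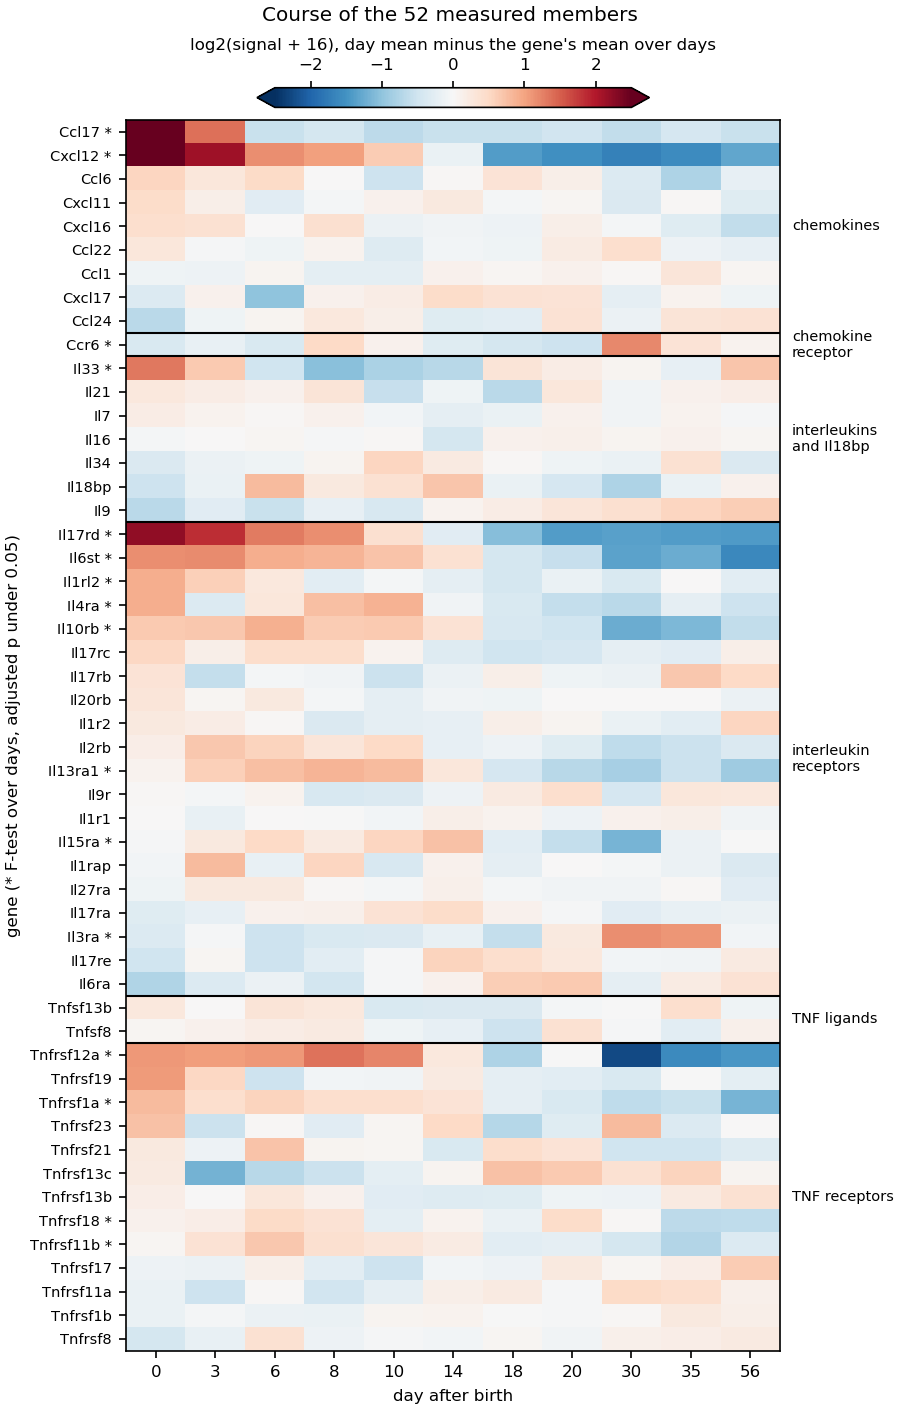
Course of the 52 members in rows, grouped by family, over the 11 days in columns. Colour is the day mean of log2(signal + 16) of 2 samples minus the gene's mean over days, with values beyond the scale drawn in the end colours, and a star marks the 16 members called by the F-test. Dark red cells at day 0 stand in the Ccl17, Cxcl12 and Il17rd rows, and blue cells at days 30 to 56 in the Cxcl12, Il17rd, Il6st, Il10rb and Tnfrsf12a rows.

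Ccl17, a chemokine that attracts T cells carrying Ccr4, was the member with the sharpest course. Its neighbour Ccl22 encodes the other ligand of Ccr4, and in the reference gene table the order is Ccl22, Cx3cl1, Ccl17 on mouse chromosome 8. The bases upstream of both gene starts are shown because the data set the courses of these neighbours side by side. They are the 250 bases before each start from RefSeq, build GRCm38.p6, plus strand, chr8:94810203-94810452 for Ccl17 and chr8:94745434-94745683 for Ccl22, with capitals for a match to the STAT motif (TTC, any 4 bases, GAA).
Ccl17: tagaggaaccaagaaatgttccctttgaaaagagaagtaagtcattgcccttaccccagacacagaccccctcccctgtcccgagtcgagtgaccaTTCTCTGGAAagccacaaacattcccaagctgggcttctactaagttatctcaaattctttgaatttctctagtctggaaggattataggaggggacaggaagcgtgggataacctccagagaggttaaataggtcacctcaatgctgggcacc
Ccl22: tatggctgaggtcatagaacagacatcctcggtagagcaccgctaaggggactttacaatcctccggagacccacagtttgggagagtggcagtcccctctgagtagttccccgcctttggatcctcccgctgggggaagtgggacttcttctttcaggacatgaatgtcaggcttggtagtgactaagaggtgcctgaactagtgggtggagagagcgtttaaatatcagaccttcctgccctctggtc
Both strands were searched for this motif, for TATAAA and for the NF-kB consensus. Other spacings between TTC and GAA, such as the ttctttgaa in the Ccl17 bases, were not searched or marked. Of the forms searched, Ccl17 held 1 match, to the STAT motif and starting 154 bases before the gene start (position -154), and Ccl22 held 0. Of 32851 such mouse windows, 5.85% hold the STAT motif, 12.4% TATAAA and 7.25% the NF-kB consensus. A match is a run of letters and not a shown binding site. The G and C content was 47.6% upstream of Ccl17 and 53.6% upstream of Ccl22.

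Ccl17 signals were 474.8 and 288.8 in the day 0 samples, 94.4 and 59.9 at day 3, and between 5.6 and 14.3 in every sample from day 6 to day 56. The samples of day 0, of day 3 and of all later days did not overlap. Ccl17 passed the filter on 4 arrays only, those of days 0 and 3, so it could be tested only because of the days at which it was high. At days 3 to 10 it fell by 3.52 ± 0.24 relative to day 0 on the log2(signal + 16) scale (± SE here and below; limma, adjusted p = 3.91e-07). The added 16 understates the change of a gene that ends this low, and with a pseudocount of 1 the change was -4.59. At day 3 alone it fell by 2.08 ± 0.3 relative to day 0 (adjusted p = 0.0313). That call was lost without day 0 sample 1 (-1.74, adjusted p = 0.0528), without day 3 sample 2 (-1.81, adjusted p = 0.259) and with a pseudocount of 1 (-2.28, adjusted p = 0.506).

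Ccl22 did not share this course. Its signals lay between 37.2 and 130.7 in all 22 samples, with 87 and 99.5 at day 0. At days 3 to 10 it differed from day 0 by -0.37 ± 0.27 (adjusted p = 0.529), and its F-test gave an adjusted p of 0.626.

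Cxcl12, the chemokine that guides germ cells and blood progenitors through Cxcr4, went down stage by stage. Its signals were 841.3 and 699.7 at day 0, and had a lowest, median and highest value of 168.8, 230 and 547.2 at days 3 to 10, of 15.6, 40.9 and 96.7 at days 14 to 20, and of 17.4, 25.7 and 35.1 at days 30 to 56. The first 3 of these stages did not overlap, while the last lay within the range of days 14 to 20. It fell by 1.46 ± 0.22 at days 3 to 10 relative to day 0 (adjusted p = 0.000884) and by 2.26 ± 0.15 at days 14 to 20 relative to days 3 to 10 (adjusted p = 1.94e-09). At days 30 to 56 the difference from days 14 to 20 was -0.48 ± 0.16, under the 2-fold limit.

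Cxcl12 has 4 kept probe sets, and they disagree in size. After birth the other 2 on type A changed by -1.52 ± 0.17 and -1.32 ± 0.3, close to the brightest. The one on type B changed by -0.16 ± 0.21 after birth and by -0.4 ± 0.15 at days 14 to 20 relative to days 3 to 10, with signals between 72.3 and 181.9 in all samples. At days 14 to 20 the other 2 on type A changed by -0.69 ± 0.12 and -0.72 ± 0.21. All 4 differences were negative at both steps, but their size depends on the probe set.

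**Figure D2:**
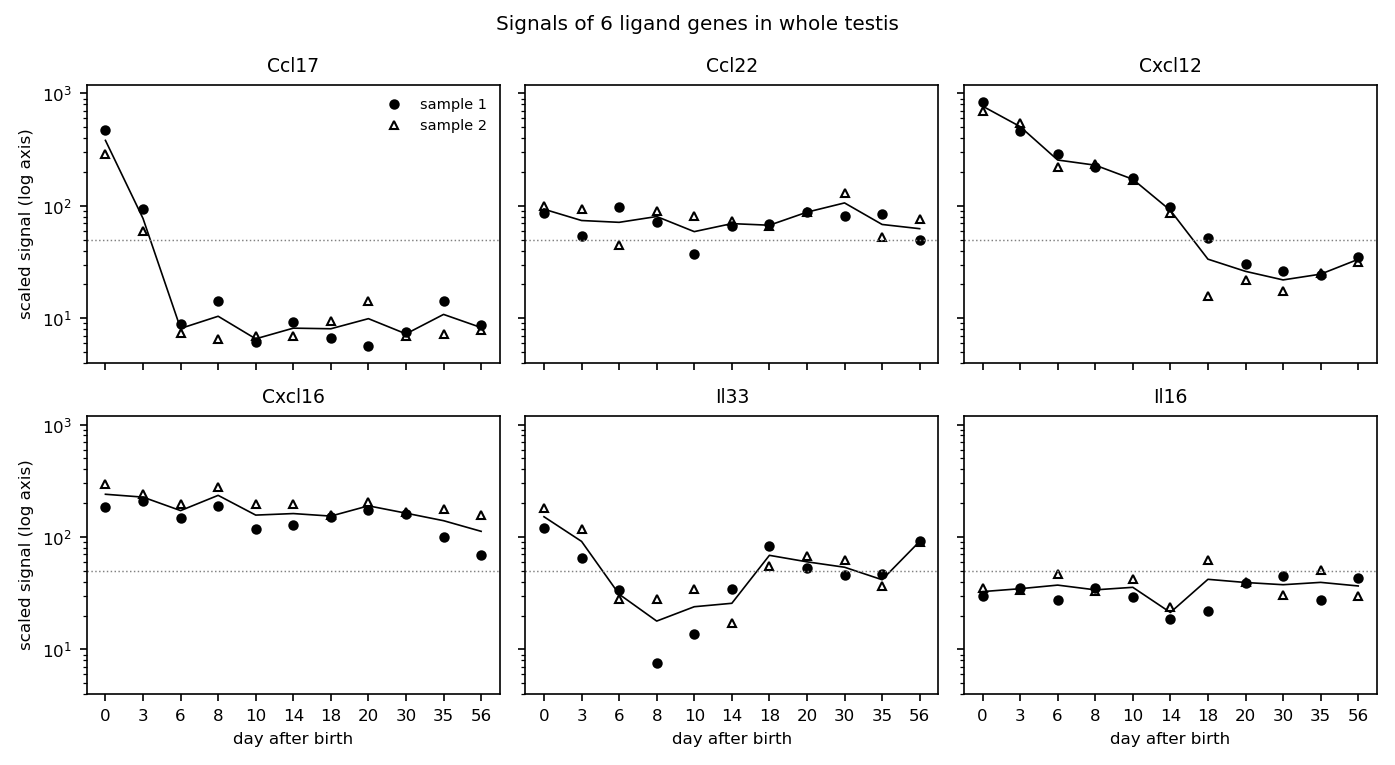
Scaled signal (log axis) of 6 ligand genes against day after birth, filled circles for sample 1, open triangles for sample 2, a line through the day means, and a dotted line at 50. Ccl17 stays between 5.6 and 14.3 from day 6 on, Cxcl12 goes down to day 30, Il33 dips between days 6 and 14, and Ccl22, Cxcl16 and Il16 show no called change.

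Il33, an alarmin of the interleukin 1 family that is stored in nuclei, was high at birth, low from day 6 to day 14 and intermediate later. Its signals were 121 and 181.7 at day 0, 65.6 and 117.1 at day 3, between 7.6 and 34.3 at days 6 to 14, and between 36.4 and 91.7 from day 18 on. At days 3 to 10 it fell by 1.73 ± 0.3 relative to day 0 (adjusted p = 0.00326), a call lost without day 0 sample 2 (-1.46, adjusted p = 0.0611). At days 30 to 56 it stood 0.6 ± 0.21 above days 3 to 10 (adjusted p = 0.0166), which is under the 2-fold limit. Il33 was the 1 gene called by the F-test among the 7 interleukin and Il18bp genes.

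No other ligand was called by the F-test. The 7 chemokines not called by the F-test were Ccl1, Ccl6, Ccl22, Ccl24, Cxcl11, Cxcl16 and Cxcl17, with ranges between day means from 0.56 (Ccl1) to 1.46 (Cxcl17) on the log2 scale. Cxcl16, the ligand of Cxcr6, had signals between 69.2 and 293.7 and an F-test adjusted p of 0.236. The T cell growth factor Il7 lay between 28.3 and 64.2 and Il16, a ligand of CD4, between 18.6 and 62.2. Of the TNF superfamily ligands, Tnfsf13b, the B cell survival factor BAFF, lay between 50.2 and 140.3 (F-test adjusted p = 0.14). Il9, a T cell cytokine, was 0.87 ± 0.21 higher at days 30 to 56 than at days 3 to 10 (adjusted p = 0.00121), under the 2-fold limit, and was not called by the F-test (adjusted p = 0.0578).

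In the comparison of days 3 to 10 with day 0, the members called lower were Ccl17, Cxcl12 and Il33, 3 of 52 (5.77%) against 0.972% of all genes. Called higher were 0 of 52 by limma, with 3 at an unadjusted p under 0.05, against 1.14% of all genes. For day 3 alone, 1 member (Ccl17) was lower against 0.0223% of all genes (3 genes in all), and 0 were higher, also 0 at an unadjusted p under 0.05, against 0.00742%. The median change of the members at days 3 to 10 was -0.07, against 0.01 for all genes. Ccl17 entered the test only through its arrays of days 0 and 3, so its place in both counts is a description, and without it 2 members were lower at days 3 to 10 and 0 at day 3. Since day 0 has 2 samples, these counts rest on few arrays. Without day 0 sample 1 or sample 2, the changes at days 3 to 10 were -3.17 and -3.86 for Ccl17 and -1.33 and -1.59 for Cxcl12. For Il33 they were -1.99 and -1.46.

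Some genes that mark other cell types also moved over the same days, in both directions. The 7 measured of 8 endothelial markers summed to 465 to 738 at days 3 to 10 and 1050 to 1080 at day 0, with 1 of 7 called lower. The 5 measured of 8 neutrophil markers summed to 139 to 354 at days 3 to 10 and 546 to 564 at day 0, with 2 called lower. The 7 Leydig markers summed to 1100 to 2130 and 2790 to 3770 at these ages, with 1 called lower. For mast cells (5 of 7 markers measured) the sums were 399 to 919 and 755 to 1040, and for erythroid cells (3 of 3) 1950 to 4780 and 4880 to 8680, with 1 called lower in each. Dendritic cell markers, of which 7 of 7 were measured, summed to 370 to 548 at days 3 to 10 and 415 to 621 at day 0, with 0 called (limma), and T cell markers, 2 of 9 measured, to 55.9 to 288 and 132 to 166. Macrophage markers, 10 of 14 measured, summed to 787 to 961 at days 3 to 10 and 836 to 1210 at day 0. Of these 0 were called (limma), with a median change of -0.04. Of 5 peritubular myoid markers 0 were called. Of 11 Sertoli markers 2 were called higher and 0 lower, and of 10 germ cell markers also 2 higher and 0 lower. The part of these cells in the falls of Ccl17, Cxcl12 and Il33 was not tested. In whole tissue, fewer cells of a type and less RNA per cell cannot be told apart.

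Il6st encodes gp130, the signalling chain shared by interleukin 6, interleukin 11 and leukaemia inhibitory factor. Its lowest, median and highest signals were 276.6, 314 and 425.1 at days 3 to 10, 84.3, 145 and 235.4 at days 14 to 20, and 37.2, 55.8 and 62.3 at days 30 to 56. These 3 stages did not overlap. It fell by 1.13 ± 0.13 at days 14 to 20 relative to days 3 to 10 (adjusted p = 1.6e-06), and it fell by 1.18 ± 0.14 at days 30 to 56 relative to days 14 to 20 (adjusted p = 1.8e-06). Over both steps it fell by 2.31 ± 0.13 (adjusted p = 2.52e-11). The calls of the single steps were lost with a pseudocount of 64 (-0.92 and -0.82) and with the mean of the gene's probe sets (-1 and -0.96), and that of the first step also with arrays brought to a common median (-0.97). The other kept probe sets of Il6st changed by -2.05 ± 0.52 (type C) and -1.61 ± 0.16 (type A) over both steps. On the type C probe set the numbered samples stood far apart early in life, with 577.6 in sample 1 and 70.6 in sample 2 at day 0 and 782.8 and 176.3 at day 3.

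**Figure D3:**
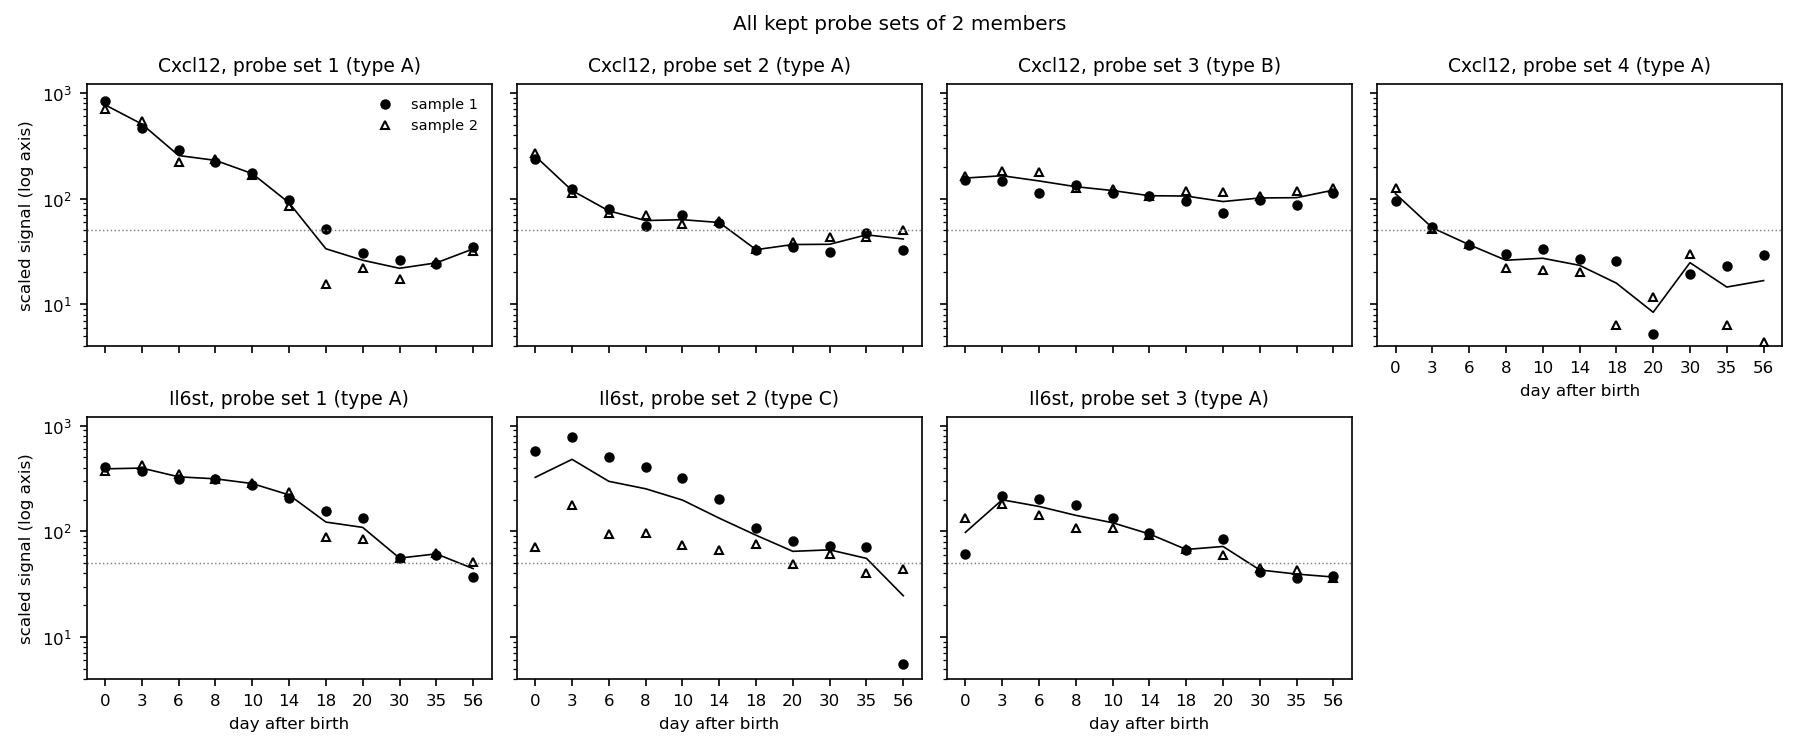
Scaled signal (log axis) of all kept probe sets of Cxcl12 (top row) and Il6st (bottom row) against day after birth, with symbols as in the plot of ligand signals. The type B probe set of Cxcl12 stays between 72.3 and 181.9, and on the type C probe set of Il6st sample 1 lies above sample 2 at days 0 to 35, by most at days 0 to 10.

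Il6ra, the chain that binds interleukin 6 itself, did not go down with Il6st. Its signals lay between 6.8 and 99.7, and at days 14 to 20 it was 0.69 ± 0.22 higher than at days 3 to 10 (adjusted p = 0.0192), under the 2-fold limit.

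Il17rd, which despite its name is best known as an inhibitor of fibroblast growth factor signalling, was high in the newborn testis. Its signals were 659.2 and 593.1 at day 0, with a lowest, median and highest value of 157.5, 305 and 557.2 at days 3 to 10, 32.6, 55.6 and 111.5 at days 14 to 20, and 22.1, 36.5 and 56.8 at days 30 to 56. The values of days 3 to 10 lay below both day 0 samples and above all later ones. At days 14 to 20 it fell by 2.09 ± 0.19 relative to days 3 to 10 (adjusted p = 1.98e-07), and at days 30 to 56 it fell by 2.57 ± 0.19 relative to days 3 to 10 (adjusted p = 3.15e-09). At days 3 to 10 its difference from day 0 was -1.03 ± 0.28 (adjusted p = 0.0528), which was not called. Il17ra, the common chain of the interleukin 17 receptors, lay between 55.4 and 142.6 and was not called in any comparison.

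Il10rb, the chain shared by the receptors of interleukin 10 and interleukin 22, kept its level until day 10. Its lowest, median and highest signals were 52.6, 70.9 and 108.8 at days 30 to 56, against 244.1, 295 and 329 at days 3 to 10. The groups did not overlap, and it fell by 1.71 ± 0.12 (adjusted p = 4.78e-10). Il10 and Il10ra, the ligand and its own chain, reached 27.3 and 25.8 at most and were not kept.

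Il13ra1, which joins Il4ra to form a receptor for interleukins 4 and 13, had signals of 33.5, 45.2 and 68.8 (lowest, median, highest) at days 30 to 56, against 100.5, 170 and 209.3 at days 3 to 10. It fell by 1.5 ± 0.21 (adjusted p = 6e-06), with no overlap. At days 14 to 20, where the samples overlapped those of days 3 to 10, its change of -1.02 ± 0.21 (adjusted p = 0.000774) sat at the 2-fold limit. It was no longer called, at -0.9 to -1, without any one of day 3 sample 2, day 6 sample 2, day 8 sample 2, day 10 sample 1, day 14 sample 2, day 18 sample 1 or day 20 sample 1. It was also lost with a pseudocount of 64 (-0.72), quantile normalization (-0.95), a common median (-0.91) and the mean of its probe sets (-0.47). Its second kept probe set changed by -0.89 ± 0.16 at days 30 to 56 relative to days 3 to 10. Il4ra had signals over 50 on 3 arrays only, of days 0, 8 and 10, and so entered the test only through the early days at which it is high. It was called by the F-test (adjusted p = 0.0017). At days 30 to 56 it stood at 6.9 to 23.8, against 11.2 to 70.6 at days 3 to 10 (-0.86 ± 0.19), under the 2-fold limit and given as a description.

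Tnfrsf12a, the receptor of the cytokine TWEAK, had the largest fall of the 52 members at days 30 to 56 relative to days 3 to 10. Its lowest, median and highest signals were 273.3, 376 and 458.1 at days 3 to 10, 73.6, 146 and 214.3 at days 14 to 20, and 17.3, 31.4 and 65.9 at days 30 to 56. The stages did not overlap. It fell by 1.35 ± 0.19 at days 14 to 20 relative to days 3 to 10 (adjusted p = 2.07e-05), and it fell by 1.6 ± 0.21 at days 30 to 56 relative to days 14 to 20 (adjusted p = 6.14e-06). Over both steps it fell by 2.95 ± 0.19 (adjusted p = 2.26e-10).

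Tnfrsf1a, the main TNF receptor of most tissues, was lower at days 30 to 56, with 42.6, 76.6 and 100.5 (lowest, median, highest), against 160.5, 207 and 236 at days 3 to 10. It fell by 1.24 ± 0.13 (adjusted p = 1.05e-07), with no overlap. Its second kept probe set, dimmer with signals between 16.6 and 66.3, changed by -0.02 ± 0.18, and the call was lost with the mean of both (-0.63) and with a pseudocount of 64 (-0.91). Tnfrsf1b, the second TNF receptor, which is known from blood cells, lay between 30.8 and 55.6 and was not called by the F-test (adjusted p = 0.742).

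**Figure D4:**
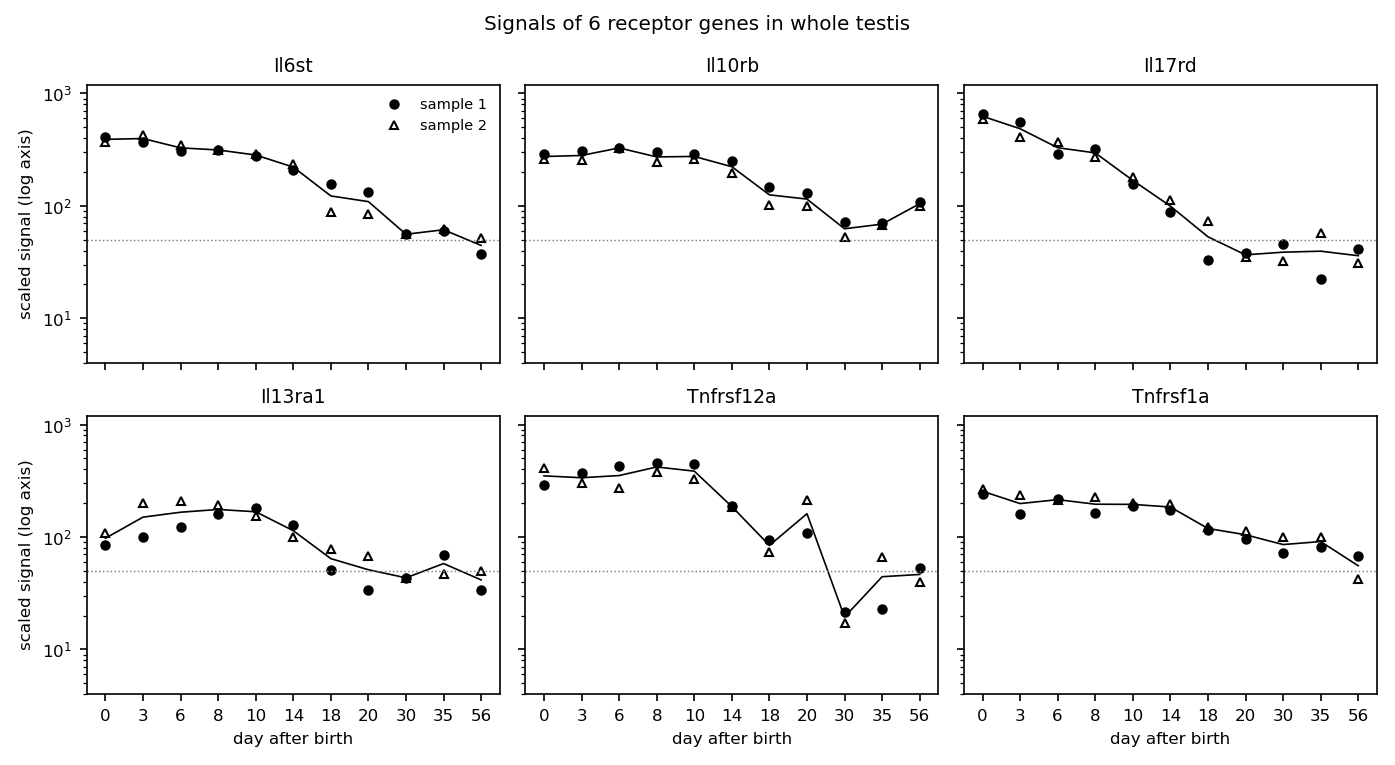
Scaled signal (log axis) of 6 receptor genes against day after birth, with symbols as in the plot of ligand signals. Il6st, Il10rb, Il13ra1, Tnfrsf12a and Tnfrsf1a have their highest signals up to day 10 and lie lower at days 30 to 56, and Il17rd goes down from day 0 on.

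A few members were called higher with age or peaked late. Il3ra, the ligand-binding chain of the interleukin 3 receptor, had signals of 91.6 and 107.2 at day 30, 88.5 and 98 at day 35, and 25.1 and 41.2 at day 56. At days 3 to 10 it lay between 15.7 and 59.1, which overlaps day 56. At days 30 to 56 it rose by 1.06 ± 0.22 relative to days 3 to 10 (adjusted p = 0.000321), a call lost without day 3 sample 1 (0.91), day 10 sample 2 (0.98) or day 56 sample 2 (0.98), or with a pseudocount of 64 (0.6). Csf2rb, the chain it signals through, differed by -0.28 ± 0.24 (adjusted p = 0.313). Ccr6, a chemokine receptor of lymphocytes and dendritic cells, was called by the F-test alone (adjusted p = 0.0408), with 81.2 and 67 at day 30 and signals between 7.6 and 51.4 in all other samples. Of its 3 arrays at 50 or more, 2 are those of day 30, so it entered the test through the day at which it is high.

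Tnfrsf13c, the BAFF receptor of B cells, was called higher at days 14 to 20 (219.7, 282 and 499 as lowest, median and highest) than at days 3 to 10 (39, 136 and 367.5). The groups overlapped, and the numbered samples stood far apart at 2 days, with 367.5 and 39 at day 6 and 276.9 and 73.2 at day 8. The rise of 1.15 ± 0.36 (adjusted p = 0.0185) was lost without day 6 sample 2 (0.8), day 8 sample 2 (0.93, adjusted p = 0.0508), day 18 sample 1 (1.07, adjusted p = 0.0524) or day 20 sample 1 (0.99, adjusted p = 0.0592). With a pseudocount of 64 it was 0.89, and the F-test did not call Tnfrsf13c (adjusted p = 0.24). The 4 measured of 5 B cell markers summed to 100 to 184 at days 14 to 20 and 120 to 222 at days 3 to 10, with 0 called (limma).

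Il2rb, a chain of the receptors of interleukins 2 and 15, lay between 20.7 and 105.9 at days 30 to 56, against 77.7 to 146.7 at days 3 to 10. It fell by 1.01 ± 0.3 (adjusted p = 0.00712), although the groups overlapped and the F-test did not call it (adjusted p = 0.363). The change came to -0.72 to -0.97, and was not called, without any one of day 3 sample 1, day 6 sample 1, day 8 sample 1, day 10 sample 2, day 30 sample 2, day 35 sample 1 or day 56 sample 2. It was not called either with a pseudocount of 64 (-0.62), quantile normalization (-0.81) or a common median (-0.78). The other members called by the F-test differed by less than 2-fold at days 30 to 56 relative to days 3 to 10. The F-test compares all day means, so this difference is not what it measured. Tnfrsf11b, the decoy receptor osteoprotegerin, differed by -0.94 ± 0.18 at days 30 to 56 relative to days 3 to 10, while its signals never passed 57.6. It reached 50 on 2 arrays, of days 6 and 8, so it entered the test only through the group in which it is high, and the difference is a description. Il15ra, Tnfrsf18 and Il1rl2, like Ccr6 named here after their values were seen, differed by -0.82 ± 0.24, -0.61 ± 0.16 and -0.35 ± 0.17. The ranges of Il15ra, Tnfrsf18 and Il1rl2 between day means were 1.9, 1.12 and 1.36. Il1rl2, the interleukin 36 receptor, was highest at day 0, with 260.2 and 272.7. Not called by the F-test were 9 of 13 TNF receptors, among them Tnfrsf11a, the RANK receptor (adjusted p = 0.3), Tnfrsf19 (0.19) and the death domain receptor gene Tnfrsf21 (0.366). Il1r1, the interleukin 1 receptor, had the narrowest range of all 52 members, 0.33 between day means (adjusted p = 0.989).

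Counted over the steps, 5 of 52 members (9.62%) were lower at days 14 to 20 than at days 3 to 10, against 5.55% of all genes, and 1 (Tnfrsf13c) was higher, against 7.11%. At days 30 to 56 relative to days 14 to 20, 2 members were lower (3.85%, Il6st and Tnfrsf12a), against 7.47% of all genes. There, 0 were higher by limma, with 3 at an unadjusted p under 0.05, against 9.06%. At days 30 to 56 relative to days 3 to 10, 8 members were lower (15.4%), against 20.7%, and 1 (Il3ra) was higher, against 14.6%. With the filter used, the share of lower members at days 14 to 20 is above the background, and the other shares of these 3 comparisons are under it. The 5 lower members at days 14 to 20 became 3 with arrays at a common median and 3 with probe set means. Over all genes 534 and 618 were then lower, against 748. The share at days 14 to 20 is thus not read as a trait of the members. A filter of 125 kept 19 members, and 8 of them were still lower at days 30 to 56 relative to days 3 to 10. Over all genes 2522 were lower with that filter, against 2788 with the filter used. None of the 8 reached 125 at days 30 to 56 on the probe set used, and Cxcl12, Il17rd and Il2rb reached it only at days 0 to 10. They passed this filter through the days at which they are high, so the 8 of 19 is a description and lends no support. The effect of low signals on the share was not tested. The median change of the members over this longest span was -0.1, against -0.25 for all genes. When arrays were brought to a common median instead, these medians were 0.13 and 0, and with quantile normalization 0.08 and -0.14, so the sign of the members' median depends on the scaling.

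**Figure D5:**
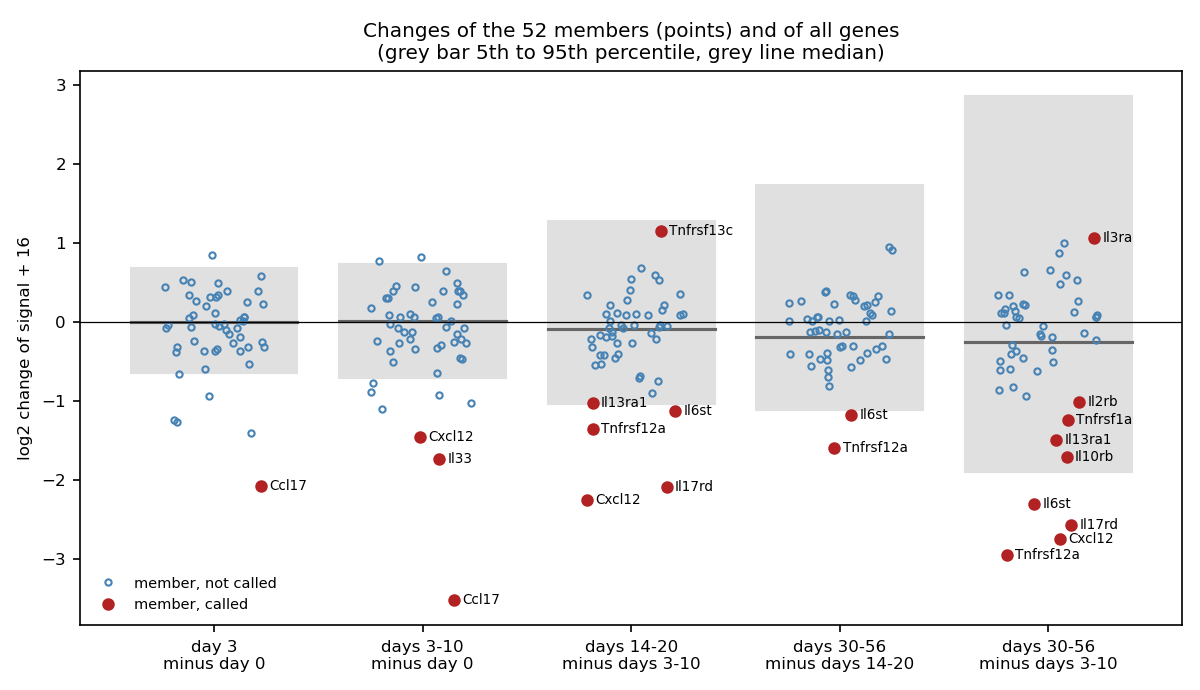
Log2 change of signal + 16 of the 52 members in 5 comparisons of stages, filled red with the name where called and open blue where not, over the 5th to 95th percentile (grey bar) and median (grey line) of all 13472 genes. Ccl17 at -3.52 lies farthest below the bar at days 3 to 10 minus day 0, and at days 30 to 56 minus days 3 to 10 the bar runs from -1.9 to 2.86, with Il6st, Il17rd, Cxcl12 and Tnfrsf12a below it.

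Marker genes of other cell types also differed over this span, in both directions. The 5 markers of peritubular myoid cells summed to 516 to 691 at days 30 to 56 and 1940 to 2890 at days 3 to 10, with 3 called lower. The 11 Sertoli markers summed to 3140 to 3980 and 8060 to 9730 at these ages, with 4 called lower and 0 higher (limma), and the endothelial markers to 204 to 320 and 465 to 738, with 1 called lower. Of 10 germ cell markers 7 were called higher and 2 lower. Macrophage markers, 10 of 14 measured, summed to 1640 to 2320 at days 30 to 56 and 787 to 961 at days 3 to 10, with 1 called higher and a median log2 change of -0.11, and of the 7 Leydig markers 3 were called higher and 1 lower. Erythroid markers summed to 656 to 1030 at days 30 to 56 and 1950 to 4780 at days 3 to 10, with 1 called lower, and mast cell markers to 311 to 390 and 399 to 919, with 2 called lower. Neutrophil markers summed to 682 to 1380 and 139 to 354 at these ages, with 1 called higher and a median of -0.64. B cell markers summed to 238 to 351 and 120 to 222, and dendritic cell markers to 514 to 696 and 370 to 548, with 0 called in each (limma). The 2 measured T cell markers summed to 160 to 242 and 55.9 to 288, with 1 called higher. The part of these cells in the falls of Il6st, Il17rd, Il10rb, Il13ra1, Tnfrsf12a and Tnfrsf1a was not tested. Of natural killer cell markers 0 were measured.

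Genes that carry these signals inside cells moved in both directions between days 3 to 10 and days 30 to 56, where 14.6% of all genes were called higher and 20.7% lower. Of 23 JAK, STAT and SOCS genes, 4 were higher and 8 lower at days 30 to 56. Stat4, a STAT factor of interleukin 12 signalling, rose by 5.22 ± 0.19 (adjusted p = 8.57e-14), while Jak1, a kinase bound to gp130, fell by 2.98 ± 0.19 (adjusted p = 3.07e-10) and Socs2, a feedback inhibitor, fell by 3.25 ± 0.13 (adjusted p = 2.41e-13). Of 29 NF-kB and TRAF genes 3 were higher and 7 lower. Irak3, an inhibitor of interleukin 1 receptor signalling, rose by 3.31 ± 0.3 (adjusted p = 2e-08), and Nfkbia, the inhibitor that holds NF-kB in the cytoplasm, fell by 2.68 ± 0.16 (adjusted p = 2.08e-10).

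Of 13 genes of general G protein and arrestin signalling, which are not particular to chemokine receptors, 0 were higher and 7 lower (limma), with a median of -1.23. Of 26 other cytokine and chemokine receptors 1 was higher and 4 lower, with a median of -0.36. Ackr3, the atypical receptor that takes up Cxcl12 (named after its value was seen), fell by 1.73 ± 0.16 (adjusted p = 3.27e-08), and most of this lay between days 14 to 20 and days 30 to 56, where it fell by 1.64 ± 0.17. Cxcl12 itself had its falls before that step. Of 9 other ligands 1 was higher and 0 lower, with a median of -0.04. The 1 was Cklf, a chemokine-like factor, which rose by 3.38 ± 0.16 (adjusted p = 9.02e-12). Over this span 14.6% of all genes were called higher and 20.7% lower.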

How the data were processed

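Total RNA of whole mouse testis at 11 ages, 2 numbered samples each, was measured on 3 array types. The deposited values are 1 signal intensity per probe set and array, which the authors scaled to a mean of 125, per the labels. The trimmed mean (2% of probe sets left out at each end) was 125 to 125.1 on every array, and 46% to 63.1% of probe sets reached 50. The software is not given in the sources used here, and detection calls were not used. The number of arrays limits the precision.

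Genes were named from the deposited platform annotation. Of 36899 probe sets, 198 controls were left out and 29131 named 1 gene. Another 7 named a member together with other genes and were not used. Members came from type A (26), B (17) and C (9). Log2(signal + 16) was fitted on 11 day means with limma 3.58.1 in R 4.3.3 (lmFit, eBayes with trend), each type on its own, with the spread shared by all days. Two-sided p-values were adjusted by Benjamini-Hochberg over 13472 genes in each comparison. Calls needed an adjusted p under 0.05 and, except in the F-test, a change of 2-fold or more. The fit was tested on simulated data. Named genes were up to 8 called in each direction per comparison, a list of textbook members, and 6 signalling genes. The members and lists were chosen with earlier results of these data known. Alternatives were other pseudocounts, filters, scalings, probe set means, no fold limit, samples left out and a sample number term.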

Additional observations from a re-analysis of the deposited data

How the results depend on the processing

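Counts of called members are given, with the reported one in brackets, and not every shift of a count is listed. The counts over all genes moved with the settings too. Lower at days 30 to 56 against days 3 to 10 (8) were 11 members with a pseudocount of 1 and 6 with one of 64. Over all genes 3371 and 1648 were then lower (2788). The count of members was 6 with the mean of probe sets (2445 of all genes). It was 7 with quantile normalization (2458 of all genes) or scaling to the median (1912 of all genes). Lower at days 3 to 10 (3) were 4 with quantile normalization or the mean of probe sets. A pseudocount of 1 gave 0 lower at day 3 (1), and at days 30 to 56 it gave 2 higher against days 14 to 20 (0) and 3 against days 3 to 10 (1). A pseudocount of 64 gave 0 higher (1) and 3 lower (5) at days 14 to 20, and at days 30 to 56 it gave 1 lower against days 14 to 20 (2) and 0 higher against days 3 to 10 (1). A filter of 125, which keeps 19 members, gave 9 by the F-test (16) and 0 higher at days 30 to 56 against days 3 to 10 (1). It left the 8 lower members of that comparison called, out of 19 instead of 52, while 2522 of all genes were lower instead of 2788. The number of all genes tested with that filter is not given here, so the 8 of 19 has no background share beside it. As these members passed that filter through earlier days, it is a description. Scaling to the median gave 3 lower at days 14 to 20 (5), and at days 30 to 56 it gave 1 higher against days 14 to 20 (0) and 3 against days 3 to 10 (1). Quantile normalization also gave 3 there. The mean of a gene's probe sets gave 3 lower at days 14 to 20 (5) and 1 lower at days 30 to 56 against days 14 to 20 (2). With no fold limit the counts were 4 higher (1) and 11 lower (5) at days 14 to 20, 2 higher (0) and 8 lower (2) at days 30 to 56 against days 14 to 20, and 5 higher (1) and 16 lower (8) against days 3 to 10. Over all genes the last comparison then had 3248 higher (1968) and 5596 lower (2788). No fitted change of a called member turned its sign under any of these. Leaving out 1 sample gave 13 to 18 by the F-test, 2 to 4 lower at days 3 to 10, 0 to 1 lower at day 3, 0 to 1 higher and 4 to 5 lower at days 14 to 20, 0 to 1 higher at days 30 to 56 against days 14 to 20, and 1 to 2 higher and 7 to 9 lower against days 3 to 10. In these fits the lone sample is assumed to vary like the other days. Where a setting moved a count, the cause was not tested.

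The samples share only a number across days. Deviations of same-numbered samples correlated over 0.1 in 27, 27 and 19 of 55 pairs of days on types A, B and C. A fit with the sample number as a replicate block gave 18 members by the F-test and the reported count in every other comparison. A replicate block in 2 periods (days 0 to 20 and days 30 to 56), chosen after seeing the data, gave 13 by the F-test and 1 higher at days 30 to 56 against days 14 to 20 (0).

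With 2 samples at day 0, falls after birth rest on few arrays. Signals under 50 have little precision, so changes of Ccl17 after day 3, Ccr6, Il3ra, Il4ra and Tnfrsf11b are limited by their low level.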
